A study of Mus musculus with 4 samples.

Results

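The genes of mechanosensitive ion channels were followed in cultures of MLO-Y4 cells with and without mechanical loading. The members, picked by gene name from a list set with earlier results of these data known, were *Piezo1*, *Piezo2*, *Trpv2*, *Trpv4*, *Trpm7*, *Trpc1*, *Pkd1*, *Pkd2*, *Tmem63a* and *Tmem63b*, and each name matched 1 row, giving 10 genes of the 55450 in the count table. MLO-Y4 is an osteocyte-like mouse cell line, whose genotype the labels give as WT, and RNA-seq was performed on 2 unloaded and 2 loaded samples. The loaded cells grew on collagen-coated plates with a silicone rubber base and underwent equiaxial cyclic stretch (20% strain, frequency 0.5 Hz) over 12 h. The unloaded cells spent the same 12 h in the incubator of the loading system on ordinary culture plates, so that stretching and the type of plate cannot be told apart. These are bulk samples, in which fewer cells expressing a gene and less RNA per cell cannot be told apart either. All samples came from the same line in the same medium, and as the labels do not say whether replicates were separate cultures, the tests measure only the spread between these samples, which may be technical.

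Mechanosensitive ion channels turn force on the membrane into an electrical or calcium signal. PIEZO channels open directly when the membrane is stretched and let cations in, and TMEM63 proteins, the animal relatives of the plant OSCA channels, are stretch-activated as well. TRPV2, TRPV4, TRPM7 and TRPC1 belong to the transient receptor potential (TRP) family of cation channels, which respond to many stimuli, among them cell swelling and flow. Polycystin-2, encoded by *Pkd2*, is a TRP-type channel that works with the large membrane protein polycystin-1, encoded by *Pkd1*, in primary cilia. In bone, PIEZO1 is known for its part in the response of osteoblasts and osteocytes to load, and TRPV4 and the polycystins are also linked to bone mass.

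None of the 9 channel genes that could be tested passed the threshold for a difference between loaded and unloaded cells, and for 8 of them the 95% interval of the change stayed within 1.5-fold in either direction. *Piezo1* and *Trpv2* were the genes whose intervals lay wholly above no change before adjustment, with fold changes of 1.15 and 1.22. *Piezo2* was close to the limit of detection in every library. The test was the quasi-likelihood F test of edgeR over 16269 genes, with Benjamini-Hochberg adjustment and the study's threshold of 0.01. At this threshold 0.0983% of all tested genes were called, 0.0123% as higher and 0.0861% as lower in loaded cells. DESeq2, the tool of the study, called 361 genes at this threshold, 2.85% of the 12659 genes to which it gave an adjusted p.

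Total counts per library ranged from 28941994 to 32185693. In these libraries 3 counts, which is the upper limit that a count of 0 allows, correspond to between 0.093 and 0.103 CPM (counts scaled to library size with TMM factors), and this covers counting error only. Of the osteocyte markers examined, *Gja1*, *Pdpn*, *Phex* and *Col1a1* were well expressed. In contrast, *Mepe* and *Dkk1* had no counts, *Sost* had counts in 1 library only and *Dmp1* had 12 to 14 counts. *Fgf23* had 4 and 9 counts in unloaded and 0 and 0 in loaded cells. *Tnfrsf11b* had 3.26 CPM in unloaded and 2.74 CPM in loaded cells. Of the macrophage markers, *Ptprc*, *Adgre1* and *Itgam* had at most 4 counts in any library, while *Csf1r* had 1578.6 CPM in unloaded and 1560.2 CPM in loaded cells, and *Cd14* had 53.6 and 42.8 CPM. The summed level of the 5 macrophage markers was 1625.7 and 1638.7 CPM in the unloaded and 1599.9 and 1606.3 CPM in the loaded libraries. That of the 5 endothelial markers was 2.01 to 3.89 CPM in all libraries, with *Pecam1*, *Cdh5*, *Tek* and *Vwf* at low counts. *Kdr* had 0 counts in both unloaded libraries and 17 and 14 in the loaded ones. No marker passed an edgeR adjusted p of 0.01, and *Pdpn* had the lowest among osteocyte markers (log2 fold change 0.59, edgeR adjusted p = 0.0334). With DESeq2 *Pdpn*, which encodes podoplanin, passed at an adjusted p of 2.23e-08, and its adjusted p ranged from 3.26e-09 to 0.105 over the alternatives. The part of these markers in the channel results was not tested.

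Levels were compared between genes only per length, as counts per kilobase of annotated exon scaled to a common total (TPM). *Piezo1* had the highest level of the 10 genes, with a mean of 84.0 TPM over the 4 libraries and a range of 78.2 to 89.2 TPM, above the level of 85.0% of all tested genes. *Tmem63b* followed at 57.5 TPM, *Trpm7* at 53.3 TPM, *Tmem63a* at 43.4 TPM and *Pkd2* at 37.5 TPM. *Trpv2* at 15.2 TPM and *Pkd1* at 14.0 TPM lay near the middle of all tested genes. *Trpc1* had 6.19 TPM and *Trpv4* 1.88 TPM, and *Piezo2* came last with 0.0367 TPM. The ranges over the libraries overlapped between *Tmem63b* and *Trpm7*, between *Trpm7* and *Tmem63a*, and between *Trpv2* and *Pkd1*. Within the groups, *Pkd1* at 15.4 and 14.6 TPM lay above *Trpv2* at 14.3 and 13.2 TPM in unloaded cells, while in loaded cells *Trpv2* at 16.6 and 16.5 TPM lay above *Pkd1* at 13.5 and 12.6 TPM. *Trpm7* overlapped *Tmem63b* in both groups. It overlapped *Tmem63a* in unloaded cells and lay above it in loaded cells, at 48.3 and 58.1 TPM against 42.8 and 43.2 TPM. With the length of the longest transcript in place of all annotated exons, *Pkd2* at 56.9 TPM came before *Tmem63a* at 46.0 TPM, and all other neighbours kept their order. The lead of *Piezo1* was then smaller, with 79.1 TPM against 69.6 TPM for *Tmem63b* and 66.2 TPM for *Trpm7*. Ranges over the libraries were not compared for this length. With all annotated exons, the order stayed the same without any single library.

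**Figure D1:**
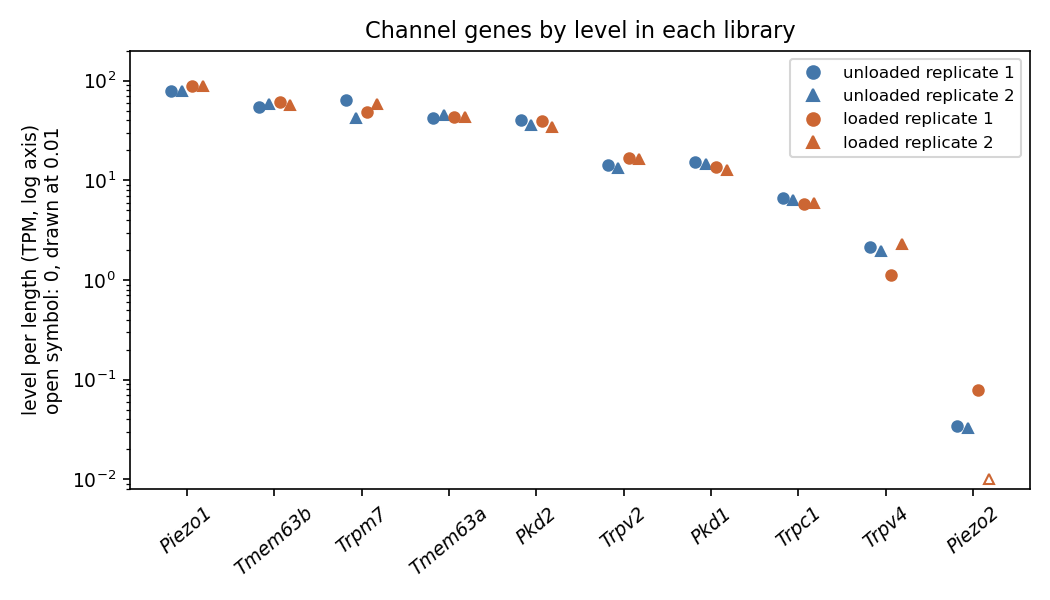
Level per length of the 10 channel genes in each of the 4 libraries, in TPM on a log axis, ordered by the mean; circles are replicate 1 and triangles replicate 2 of unloaded (blue) and loaded (orange) cells. *Piezo1* lies between 78.2 and 89.2 TPM, while *Piezo2* does not exceed 0.0796 TPM and is 0 in 1 loaded library, drawn as an open symbol at 0.01.

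By family, the TMEM63 genes made up 30.3% and 34.8% of the summed TPM of the 10 genes without loading and 32.6% and 31.4% with loading. The PIEZO genes made up 24.6% and 26.7% in unloaded and 28.1% and 27.9% in loaded cells, nearly all of it *Piezo1*. For the TRP genes the shares were 27.6% and 21.5% against 22.7% and 25.9%, and for the polycystin genes 17.5% and 17.0% against 16.6% and 14.8%. The summed level was 317.4 and 297.4 TPM in the unloaded and 317.3 and 319.8 TPM in the loaded libraries, and the groups overlapped.

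*Piezo1* (ENSMUSG00000014444.17) is a minus-strand gene of chromosome 8, 122481698 to 122551329 (GRCm38). It had 6522 and 7097 counts without loading and 8415 and 7927 counts with loading. The mean level was 229 ± 6.8 CPM without and 263 ± 3.66 CPM with loading (SD, n = 2). Both loaded libraries thus lay above both unloaded ones, with a gap larger than the differences between replicates. The fold change was 1.15 (95% interval 1.04 to 1.27), or 0.20 on the log2 scale with a standard error of 0.0614. The edgeR unadjusted p was 0.0171 and the edgeR adjusted p was 0.228, above the threshold. DESeq2 gave an adjusted p of 0.179, and over all alternatives run the adjusted p ranged from 0.107 to 0.577. Leaving out single libraries gave log2 fold changes of 0.18 to 0.23.

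The last 2441 bases of *Piezo1* are also covered by annotated exons of *Ctu2* (chromosome 8, 122476143 to 122484138), a gene of tRNA modification on the opposite strand. This is 24.6% of the annotated exon length of *Piezo1* and includes 1122 coding bases. Whether the counting used strand is not stated, so reads from the shared span cannot be told apart. *Ctu2* had 16.4 and 16.1 CPM in the unloaded and 20.8 and 20.3 CPM in the loaded libraries, which is 0.34 on the log2 scale (SE 0.115, edgeR adjusted p = 0.272). Both genes were thus higher in the loaded libraries. The difference between the group means was 4.3 CPM for *Ctu2* and 34.0 CPM for *Piezo1*, and the part of shared reads in either was not tested.

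**Figure D2:**
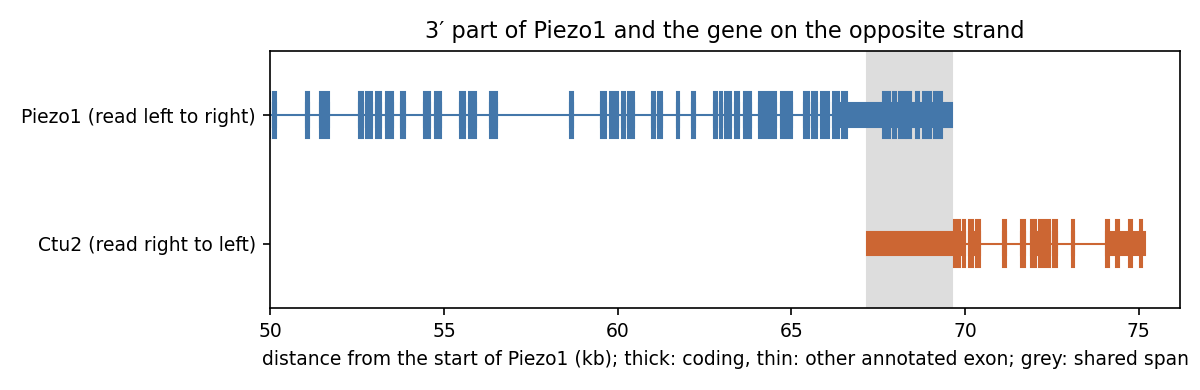
Annotated exons (GENCODE M21) at the 3′ part of *Piezo1* and in *Ctu2*, by distance in kilobases from the start of *Piezo1*; thick boxes are coding and thin boxes other annotated exon. The grey span marks the 2441 bases that exons of both genes cover on opposite strands.

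*Piezo2* (ENSMUSG00000041482.17), the PIEZO channel known best from touch and position sense, had 5 and 5 counts without loading and 13 and 0 counts with loading. It did not pass the filter on low counts and was not tested. The loaded libraries bracketed the unloaded ones, so no difference was detectable at this depth. Per length, *Piezo1* exceeded *Piezo2* 2253-fold and 2452-fold in the unloaded libraries and 1118-fold in loaded replicate 1. In loaded replicate 2, where *Piezo2* had 0 counts, the ratio to a floor of 3 counts was at least 4564-fold.

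*Trpv2* (ENSMUSG00000018507.16, plus strand of chromosome 11, 62574486 to 62600515) encodes a cation channel that responds to membrane stretch and heat. Its counts were 540 and 532 in unloaded and 707 and 663 in loaded cells. The mean level was 18.1 ± 0.735 CPM without and 22.1 ± 0.236 CPM with loading (SD, n = 2), and the groups did not overlap. The fold change was 1.22 (95% interval 1.01 to 1.48), or 0.29 on the log2 scale with a standard error of 0.112. The edgeR unadjusted p was 0.0419 and the edgeR adjusted p was 0.327, and the latter ranged from 0.309 to 0.649 over the alternatives. This was the largest fold change upward among the 9 tested channel genes, and it did not pass the threshold.

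*Trpv4* (ENSMUSG00000014158.12, minus strand of chromosome 5, 114622152 to 114658421), a channel opened by cell swelling and flow, had few counts, with 74 and 71 in unloaded and 44 and 83 in loaded cells. The unloaded libraries lay between the loaded ones, which differed from each other by 1.0 on the log2 scale. The fold change was 0.847 (95% interval 0.424 to 1.69, edgeR adjusted p = 0.849). *Trpv4* was the 1 tested channel gene whose interval reached beyond 1.5-fold and beyond 2-fold, so a change of that size could not be told from no change in these libraries. Without loaded replicate 1 the log2 fold change was 0.19, and without loaded replicate 2 it was -0.84.

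*Trpm7* (ENSMUSG00000027365.14, minus strand of chromosome 2, 126791565 to 126876230) encodes a magnesium- and calcium-permeable channel fused to a protein kinase. It had 6119 and 4321 counts without loading and 5204 and 5876 counts with loading, the widest spread between replicates among the well expressed channel genes. The mean level was 177 ± 48.2 CPM without and 179 ± 25.4 CPM with loading (SD, n = 2). Both loaded libraries lay between the unloaded ones. The unloaded replicates differed by 0.56 on the log2 scale, against a median of 0.10 over 9684 genes of at least 10 CPM, and 3.1% of these genes differed by as much. The fold change between the groups was 1.01 (95% interval 0.734 to 1.4, edgeR adjusted p = 0.975), and leaving out single libraries gave log2 fold changes of -0.23 to 0.34.

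*Trpc1* (ENSMUSG00000032839.13, minus strand of chromosome 9, 95705082 to 95750375), a subunit of receptor- and store-linked cation channels, had 449 and 456 counts in unloaded and 446 and 427 counts in loaded cells. In CPM the loaded libraries, at 13.8 and 14.3, lay below the unloaded ones, at 15.5 and 15.0. The fold change was 0.923 (95% interval 0.742 to 1.15, edgeR adjusted p = 0.745).

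**Figure D3:**
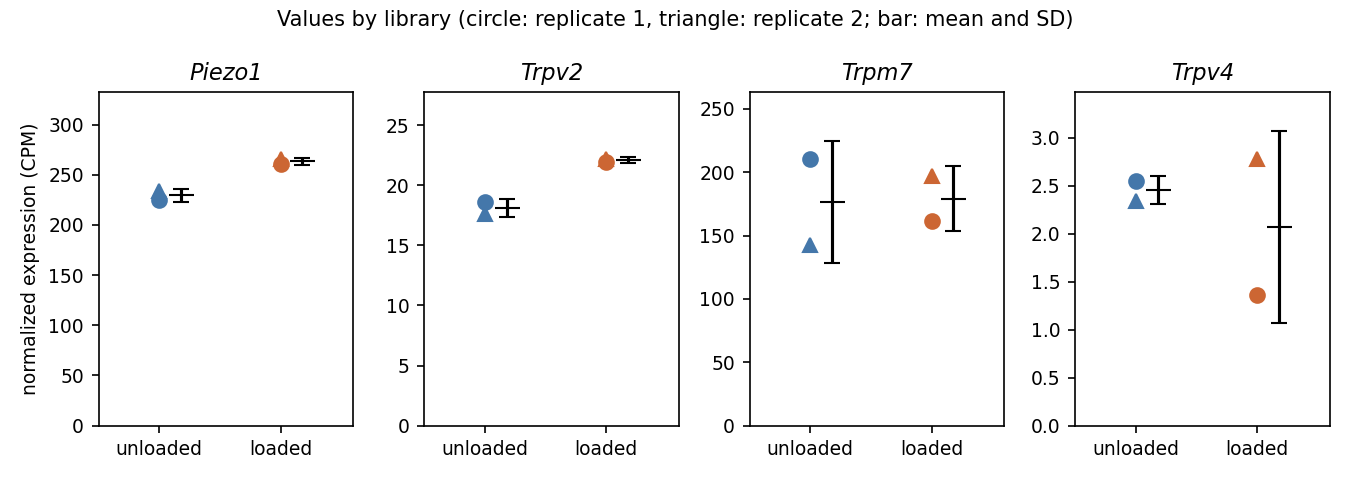
Normalized expression (CPM) of *Piezo1*, *Trpv2*, *Trpm7* and *Trpv4* in each library, with the mean and SD of 2 replicates per group beside the points; each axis starts at 0. For *Piezo1* and *Trpv2* both loaded libraries lie above both unloaded ones, and for *Trpm7* and *Trpv4* the groups overlap.

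*Pkd1* (ENSMUSG00000032855.6, plus strand of chromosome 17, 24549834 to 24596508) had 2245 and 2293 counts in unloaded and 2239 and 1964 counts in loaded cells. The mean level was 76.5 ± 1.16 CPM without and 67.6 ± 2.47 CPM with loading (SD, n = 2), and both loaded libraries lay below both unloaded ones. The fold change was 0.885 (95% interval 0.764 to 1.02), and the edgeR adjusted p was 0.424, with a range of 0.379 to 0.754 over the alternatives. The last 693 bases of *Pkd1*, none of them coding, are shared with exons of *Tsc2* on the opposite strand, and the log2 fold change of *Tsc2* was -0.09 (edgeR adjusted p = 0.762).

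*Pkd2* (ENSMUSG00000034462.9, plus strand of chromosome 5, 104459450 to 104505819), the partner of *Pkd1*, had 3429 and 3273 counts in unloaded and 3800 and 3154 counts in loaded cells. The mean level was 113 ± 7.12 CPM without and 112 ± 8.45 CPM with loading (SD, n = 2). The difference was smaller than either SD. The fold change was 0.989 (95% interval 0.849 to 1.15, edgeR adjusted p = 0.962). Per length, *Pkd2* exceeded *Pkd1* by 2.62-fold and 2.44-fold in the unloaded and by 2.91-fold and 2.75-fold in the loaded libraries. The ratio was thus higher in both loaded libraries, which was not tested.

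*Tmem63a* (ENSMUSG00000026519.16, plus strand of chromosome 1, 180942344 to 180975112) had 1585 and 1843 counts in unloaded and 1830 and 1735 counts in loaded cells. Its fold change was 0.996 (95% interval 0.841 to 1.18, edgeR adjusted p = 0.987), and both loaded libraries lay between the unloaded ones in CPM. *Tmem63b* (ENSMUSG00000036026.15, minus strand of chromosome 17, 45660171 to 45686905) had 2317 and 2658 counts in unloaded and 2946 and 2609 counts in loaded cells. Its fold change was 1.07 (95% interval 0.919 to 1.24, edgeR adjusted p = 0.689), and the groups overlapped. Per length, *Tmem63b* exceeded *Tmem63a* by 1.29-fold and 1.27-fold in unloaded and by 1.42-fold and 1.32-fold in loaded cells. Both genes have annotated exons on the opposite strand. Of these, *Mrpl14*, which shares 106 bases with *Tmem63b*, was the 1 gene expressed at a like level, with 45.9 CPM in unloaded and 43.9 CPM in loaded cells.

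Over the 9 tested channel genes, 4 log2 fold changes were above and 5 below 0, with a median of -0.01 and a range of -0.24 to 0.29. The median over all tested genes was -0.009. No channel gene passed an adjusted p of 0.01 or 0.05 with edgeR or with DESeq2. With edgeR, 0.0983% and 0.904% of the 16269 tested genes passed these thresholds. DESeq2 gave an adjusted p to 12659 genes, of which 2.85% and 4.81% passed. By direction, 0.338% and 0.565% of tested genes were higher and lower at 0.05 with edgeR. With DESeq2 these shares were 1.34% and 1.52% at 0.01, and 2.48% and 2.33% at 0.05. At an unadjusted p under 0.05, 2 of the 9 genes were counted, both higher in loaded cells, against 14.3% of all tested genes, 6.88% higher and 7.46% lower. The CPM of the groups did not overlap for 4 of the 9 genes, 2 higher and 2 lower in loaded cells. The share among all tested genes was 46.6%, with 22.1% higher and 24.5% lower, and the channel genes are close to that background.

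**Figure D4:**
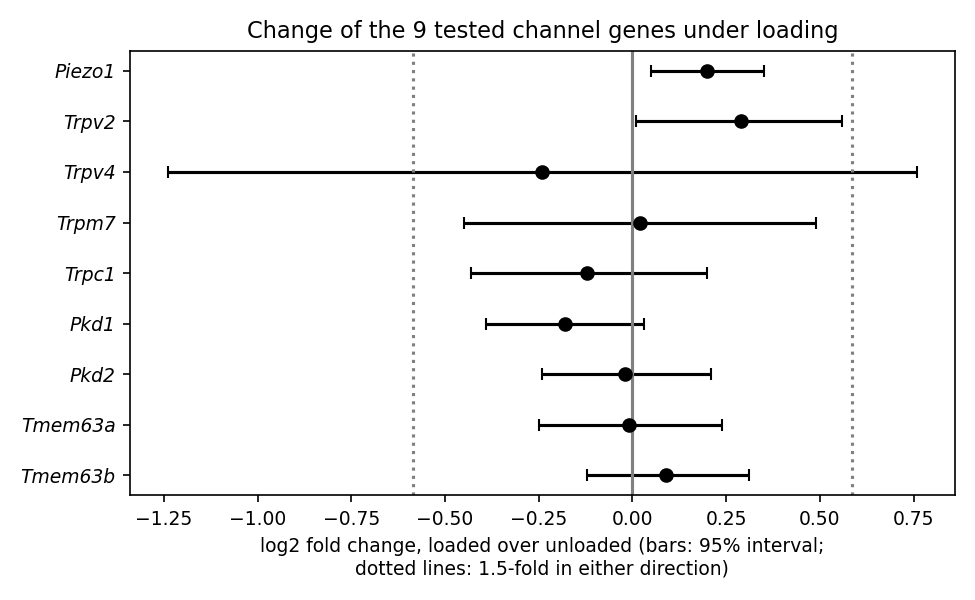
Log2 fold change of loaded over unloaded cells for the 9 tested channel genes (points) with the 95% interval from edgeR's quasi-likelihood fit (bars); dotted lines mark 1.5-fold in either direction. All intervals except that of *Trpv4* (-1.24 to 0.76) lie between the dotted lines, and those of *Piezo1* (0.05 to 0.35) and *Trpv2* (0.01 to 0.56) do not reach 0.

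Promoters were examined because the study concerns the transcription factor NRF2. The search covered 11 RefSeq (GRCm38.p6) start sites of 9 of the channel genes and did not include *Piezo2*. The 250 bases before each start were searched on both strands for the letters of 4 motifs. These were the antioxidant response element bound by NRF2 (TGACNNNGC), AP-1 (TGANTCA, which can share letters with the former), TEAD (GGAATG) and the TATA box (TATAAA). Of all 32851 promoters, 10.2% held the first, 6.75% the second, 12.6% the third and 12.4% the last. Among the 11 promoters, 1 held the antioxidant response element, 0 held AP-1, 2 held TEAD and 1 held TATA letters. The sequences of *Piezo1* and *Trpv2* are shown because these genes lay highest in loaded relative to unloaded cells, and that of *Pkd2* because it held the antioxidant response element. They read 5′ to 3′ on the strand of the gene and end at the base before the start, with matched letters in capitals.
*Piezo1*, chr8:122551330-122551579, minus strand: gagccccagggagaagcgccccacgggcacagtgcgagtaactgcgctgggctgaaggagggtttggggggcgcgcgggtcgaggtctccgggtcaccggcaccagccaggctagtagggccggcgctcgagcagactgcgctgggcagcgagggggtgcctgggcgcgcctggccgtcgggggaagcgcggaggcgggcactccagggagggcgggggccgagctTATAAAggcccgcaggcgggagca
*Trpv2*, chr11:62574236-62574485, plus strand: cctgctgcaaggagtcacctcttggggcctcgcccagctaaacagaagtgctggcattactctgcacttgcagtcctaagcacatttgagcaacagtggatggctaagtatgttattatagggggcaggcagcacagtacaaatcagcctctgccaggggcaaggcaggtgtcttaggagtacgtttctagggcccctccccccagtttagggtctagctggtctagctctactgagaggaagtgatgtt
*Pkd2*, chr5:104459207-104459456, plus strand: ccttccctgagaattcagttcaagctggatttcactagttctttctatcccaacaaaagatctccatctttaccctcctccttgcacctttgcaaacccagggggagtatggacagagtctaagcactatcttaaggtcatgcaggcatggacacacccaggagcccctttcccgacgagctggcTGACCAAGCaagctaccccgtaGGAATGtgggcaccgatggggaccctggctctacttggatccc
The capitals mark TATAAA beginning 24 bases before the start of *Piezo1*, and in *Pkd2* the antioxidant response element letters beginning 65 bases and the TEAD letters beginning 43 bases before the start. The promoter of *Piezo1* was richer in G and C (74.0%) than those of *Trpv2* (53.2%) and *Pkd2* (52.8%). The sequence shown for *Trpv2* held none of the 4 motifs, nor did that of a start 27 bases further into the gene. A further annotated start of *Trpv2*, 1141 bases inside the gene as annotated in GENCODE M21, held TEAD letters. The matches describe the letters in these windows only.

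The other genes of the TRP family were read from the same table. Of 28 TRP, mucolipin and polycystin-2-like genes, 14 passed the filter on low counts and 7 had no counts in any library, among them *Trpv1*, *Trpc4* and *Trpc6*. *Trpm7*, *Pkd2* and *Trpv2* had the highest levels per length of the family, followed by *Mcoln1*, which encodes a lysosomal calcium channel, at 9.96 TPM. None of the 14 genes passed an edgeR adjusted p of 0.05. At an unadjusted p under 0.05, which 14.3% of all tested genes passed (6.88% higher, 7.46% lower), there were 3. Of these, *Trpv2* and *Trpm8* were higher and *Trpm6* was lower in loaded cells. *Trpm6*, the closest relative of *Trpm7*, had 234 and 246 counts in unloaded and 154 and 189 counts in loaded cells (log2 fold change -0.54, edgeR adjusted p = 0.331). *Trpm8*, a cold sensor with a mean of 0.345 TPM, had 8 and 5 counts in unloaded and 18 and 28 in loaded cells (log2 fold change 1.75, edgeR adjusted p = 0.328). *Trpm6*, *Trpm8* and *Mcoln1* were chosen after their values were seen.

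Further channels linked to stretch or swelling were taken from a list of 32 genes, of which 15 were tested and 10 had no counts in any library. Of the tested genes 7 log2 fold changes were above and 8 below 0, with a median of 0.00. None passed an edgeR adjusted p of 0.05, and 3 had an unadjusted p under 0.05, all higher in loaded cells, against 6.88% of all tested genes that were higher at this p. *Lrrc8d*, a subunit of volume-regulated anion channels, had 19.6 and 37.8 CPM in unloaded and 57.6 ± 2.1 CPM in loaded cells (SD, n = 2), a difference of 1.0 on the log2 scale (SE 0.284, edgeR adjusted p = 0.193). The size of this difference depends in part on unloaded replicate 1, without which the log2 fold change was 0.61. Without unloaded replicate 2 the log2 fold change was 1.55. *Lrrc8a*, the essential subunit of the same channels, differed by 0.23 on the log2 scale (edgeR adjusted p = 0.34), and *Tmem120a*, which encodes the membrane protein TACAN, 0.28 (edgeR adjusted p = 0.325). *Kcnk2*, a stretch-sensitive potassium channel, had 28.1 CPM in both groups. *Tmem150c*, *Tmc1* and *Tmc2* had no counts. These 4 genes, and *Mdfic* and *Atp2a2* in the lists that follow, were named after their values were seen.

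A list of 10 partners and maturation factors of PIEZO and polycystin proteins had 7 tested genes, of which 6 log2 fold changes were below 0 and 1 above, with a median of -0.16. In 6 of the 7 genes the loaded CPM lay below the unloaded CPM without overlap, which 24.5% of all tested genes did. None passed an edgeR adjusted p of 0.05, and 2 had an unadjusted p under 0.05, both lower in loaded cells, against 7.46% of all tested genes. These were *Ganab*, the catalytic subunit of endoplasmic reticulum glucosidase II, which is needed for the maturation of polycystins, with 412 ± 15.0 CPM in unloaded and 369 ± 13.7 CPM in loaded cells (SD, n = 2), and *Dnajb11*, a chaperone of the same compartment. Their log2 fold changes were -0.16 and -0.17 (edgeR adjusted p = 0.33 and 0.347). *Stom*, which encodes the membrane protein stomatin, differed by 0.19 on the log2 scale (edgeR adjusted p = 0.358). *Mdfic*, an auxiliary subunit of PIEZO channels, had 65.0 CPM in unloaded and 57.4 CPM in loaded cells, or -0.18 on the log2 scale (edgeR adjusted p = 0.552).

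Calcium that enters through these channels is handled by pumps, stores and further channels. Of 33 calcium transport genes 21 were tested, 13 with log2 fold changes above and 8 below 0 and a median of 0.05. None passed an edgeR adjusted p of 0.05, and 2 had an unadjusted p under 0.05, both lower in loaded cells. Of all tested genes 14.3% passed this p, 7.46% as lower. *Atp2b4*, a plasma membrane calcium pump, differed by -0.53 on the log2 scale (edgeR adjusted p = 0.318), *Micu2*, a regulator of mitochondrial calcium uptake, -0.22 (edgeR adjusted p = 0.331), and *Orai2*, a store-operated channel, 0.28 (edgeR adjusted p = 0.354). *Atp2a2*, the calcium pump of the endoplasmic reticulum, was the most abundant of the list per length at 287.8 TPM.

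A list of 26 genes held those of calmodulin, calcineurin, NFAT and calcium/calmodulin-dependent kinases, with the *Rcan* genes, *Creb1*, *Cabin1* and *Dyrk1a*. All were tested, 13 with log2 fold changes above and 13 below 0 and a median of 0.00. None passed an edgeR adjusted p of 0.05, and 2 had an unadjusted p under 0.05, both higher in loaded cells. Of all tested genes 14.3% passed this p, 6.88% as higher. *Camk2g*, a kinase subunit activated by calcium and calmodulin, had 28.9 and 42.8 CPM in unloaded and 57.3 ± 0.0693 CPM in loaded cells (SD, n = 2). The log2 difference was 0.68 (SE 0.185, edgeR adjusted p = 0.187), and with DESeq2 its adjusted p was 0.00519, the 1 call that DESeq2 made in the 5 lists. Over all alternatives its adjusted p ranged from 0.00519 to 0.385, and without unloaded replicate 1 the log2 fold change was 0.43. *Camk1d* differed by 0.35 on the log2 scale (edgeR adjusted p = 0.293). *Rcan3*, a regulator of calcineurin, had 37.7 and 8.98 CPM in unloaded and 8.63 ± 1.08 CPM in loaded cells (SD, n = 2), which is -1.44 on the log2 scale (edgeR adjusted p = 0.359). The difference rests on unloaded replicate 1, without which it was -0.05; without unloaded replicate 2 it was -2.13, with an edgeR adjusted p of 0.00211.

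**Figure D5:**
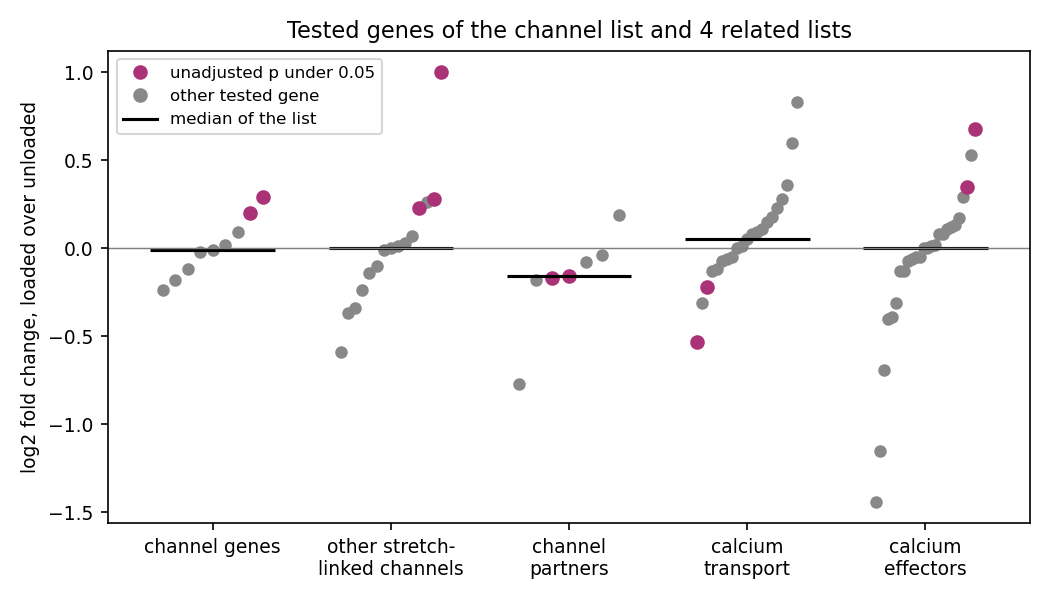
Log2 fold change of loaded over unloaded cells for each tested gene of the channel list and of 4 related lists, ordered within a list; the horizontal bar is the median of the list and purple points have an unadjusted edgeR p under 0.05. The medians lie between -0.16 (channel partners) and 0.05 (calcium transport), and the purple point at 1.0 is *Lrrc8d*.

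The genes whose profile over the 4 libraries was most like that of *Piezo1* were sought among 9683 other genes of at least 10 CPM, by the distance between log2 CPM values centred on their mean. The nearest were *Coq7*, *Slc31a1* and *Acot13*, at distances of 0.0193, 0.0215 and 0.0225. *Slc31a1*, a copper transporter, had 84.8 and 87.0 CPM in unloaded and 98.1 and 100.8 CPM in loaded cells. With 4 libraries such likeness describes these libraries only.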

How the data were processed

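RNA-seq was performed on 2 unloaded and 2 loaded samples of MLO-Y4 cells after depletion of ribosomal RNA. The authors mapped trimmed and filtered reads to mm10 with HISAT2 2.1.0, assembled transcripts with StringTie 1.3.5 and made gene count matrices with its prepDE script. What they deposited are whole-number counts for each gene without normalization; the annotation release and strand setting are not given in the sources used here. All 55450 identifiers matched GENCODE M21 (GRCm38), which supplied positions, exon lengths and overlaps.

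Genes were filtered with filterByExpr (count minimum 10), normalized by TMM and tested with glmQLFit and glmQLFTest of edgeR 4.0.16 in R 4.3.3, without pairing, with Benjamini-Hochberg adjustment over 16269 genes. The standard error is the log2 fold change divided by the square root of F, and 95% intervals use the t distribution of the fit. TPM values were computed from counts and merged exon lengths. Alternatives were DESeq2 1.42.0 (which the authors used, in version 1.32.0), limma-voom 3.58.1, other normalization factors and filters, the replicate number as a block, a threshold of 0.05 and leaving out each library. Replicates differed beyond sampling noise (chi-square per degree of freedom 17 and 18.8).

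The channel genes and the lists were chosen with earlier results of these data known. Genes named are all 10 channel genes and, of each list, those with an adjusted p under 0.01 with edgeR or DESeq2 and the 3 with the smallest p, the 3 profiles nearest to the channel gene with the smallest p, overlapping genes, markers, and others said to be named after their values were seen.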

Additional observations from a re-analysis of the deposited data

How the results depend on the processing

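No channel gene passed the threshold under any of the 13 alternatives run for each of the 9 tested genes, and the lowest adjusted p among them was 0.107, for *Piezo1* with DESeq2 after edgeR's filter, an alternative added after the data were seen. The direction was the same throughout for *Piezo1*, *Trpv2*, *Trpc1*, *Pkd1* and *Tmem63b*. It turned for the other 4. Leaving out single libraries gave log2 fold changes of -0.84 to 0.19 for *Trpv4*, -0.23 to 0.34 for *Trpm7* (-0.13 without loaded replicate 2), -0.09 to 0.06 for *Pkd2* and -0.07 to 0.07 for *Tmem63a* (0.02 without loaded replicate 1). *Tmem63a* was also 0.00, on the positive side, with DESeq2 under both filters and with RLE factors. In these fits the lone library of a group is assumed to vary like those of the other group.

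The number of genes called over all tested genes, 16 as reported (2 higher, 14 lower), was 361 with DESeq2 (169 higher, 192 lower), 443 with DESeq2 after edgeR's filter, 29 with at least 10 counts in every library, 0 without a filter on low counts, 147 at an adjusted p under 0.05, and 0 to 58 with single libraries left out (50 and 58 without unloaded replicates 1 and 2, 0 without either loaded replicate). With the replicate number as a block it was 0, and no list gained a call. The samples share only the number in their labels, and same-numbered libraries showed no shared deviation (correlation -0.057 across genes). The 4 related lists had 0 calls except 1 for the calcium effectors with DESeq2 (*Camk2g*), and 0 to 1 with each library left out for the calcium effectors (*Rcan3*) and for the other stretch-linked channels (*Lrrc8d*), both without unloaded replicate 2. The causes were not tested. Low counts limit what could be seen for *Trpv4* and *Piezo2*, and for *Trpv4* the loaded libraries also differed from each other.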
